A study of Mus musculus with 6 samples.

Results

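The T cell receptor and helper genes described here are 10 genes of the T cell receptor complex and of T cell help, chosen by name from the 35275 genes of the deposited table, with no threshold on their values. They are Cd3d, Cd3e and Cd3g (the CD3 chains), Trbc2 (a receptor constant region), Cd4, Cd8a and Cd8b1 (the coreceptors), Lck (the kinase bound by the coreceptors), and Icos and Pdcd1 (a costimulatory and an inhibitory receptor). All 10 were found once, and all were measured in each of the 6 libraries.

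The libraries came from B cells taken with a magnetic pan-B cell kit from spleens of C57BL/6 mice, 6 to 8 weeks old, at day 8 after an injection of sheep red blood cells (SRBC), an antigen that elicits T cell help and germinal centres. One group was wild type (WT) and the other carried an altered CD40 ligand, CD40LΔ5, with 3 libraries each. All mice received SRBC, and there was no uninjected group. The labels do not describe the allele further, nor say whether each library is 1 animal, so p-values measure the spread between these libraries, which may be technical.

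The sources placed the libraries differently. In the authors' deposited table of group means, the MUT column equals the mean of the libraries labelled WT replicates 1 and 2 and CD40LΔ5 replicate 2, and the WT column that of WT replicate 3 and CD40LΔ5 replicates 1 and 3, to within 3.33e-08 FPKM. Labels and table thus place 2 of the 6 libraries alike. Both placements are given side by side; they hold the same libraries and are not independent, and a library is always named by its label. Each library held 24320080 to 27866611 reads on genes. The B cell label fitted its markers, with Cd79a, a B cell receptor signalling chain, at 1510 to 1999 FPKM. Cd40lg, the CD40 ligand gene, measured 0.533, 0.428 and 0.203 FPKM in the libraries labelled WT and 0.118, 0.483 and 0.144 FPKM in those labelled CD40LΔ5, in the order of replicates 1, 2 and 3, on 4 to 17 reads. It overlapped between the labels (exact permutation p = 0.3, n = 3). It did not overlap between the table's sets, at 0.481 ± 0.0526 FPKM averaged as MUT and 0.155 ± 0.0437 FPKM averaged as WT (SD, n = 3; exact permutation p = 0.1, the smallest possible). Of all genes of at least 0.1 FPKM, 12.5% were higher without overlap in the libraries averaged as MUT. The labels do not say how the allele affects the Cd40lg transcript.

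The T cell receptor recognises peptide on MHC through its variable chains and has no signalling motifs of its own. The CD3 delta, epsilon and gamma chains carry the signal inwards, where Lck, brought by CD4 or CD8, phosphorylates them. In the spleen, follicular helper T cells, which bear ICOS and PD-1 (the product of Pdcd1), give B cells CD40 ligand in the germinal centre. A pan-B cell kit works by removing other cells, T cells among them, so transcripts of these genes in such a preparation come from T cells that remained or from other cells that express the gene. The measurement does not separate these sources, and fewer cells of a type cannot be told apart from less RNA per cell.

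The CD3 genes lie together on chromosome 9. Cd3g (44969572 to 44980431, minus strand) and Cd3d (44981793 to 44987052, plus strand) are transcribed away from each other with 1361 bases between them, and Cd3e (44998743 to 45009590, minus strand) follows after 11690 bases. The upstream sequences of these genes are shown because the CD3 chains had similar patterns over the libraries, and those of Lck because it did not follow them. Whether the sequences bear on these patterns was not tested. Promoter entries were matched for 6 of the 10 genes, and those of Cd8a and Pdcd1 are not shown. Each sequence is the 250 bases before a RefSeq start site in GRCm38.p6, 5′ to 3′ on the strand of the gene. Capitals mark GGAAGT, a core sequence bound by ETS factors, or TGTGGT, bound by RUNX factors, on either strand.
Cd3d, chr9:44981536-44981785, plus strand: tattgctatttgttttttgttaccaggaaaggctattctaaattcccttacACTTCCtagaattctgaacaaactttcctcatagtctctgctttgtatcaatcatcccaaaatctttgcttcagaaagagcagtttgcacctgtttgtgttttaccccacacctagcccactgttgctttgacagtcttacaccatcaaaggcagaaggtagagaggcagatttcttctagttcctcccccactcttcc
Cd3g, chr9:44980432-44980681, minus strand: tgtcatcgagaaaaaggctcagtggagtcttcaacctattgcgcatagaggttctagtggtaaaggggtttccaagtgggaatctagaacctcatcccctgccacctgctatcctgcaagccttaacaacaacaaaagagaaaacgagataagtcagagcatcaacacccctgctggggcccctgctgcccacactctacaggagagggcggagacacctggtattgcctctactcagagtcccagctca
Cd3e, chr9:45009612-45009861, minus strand: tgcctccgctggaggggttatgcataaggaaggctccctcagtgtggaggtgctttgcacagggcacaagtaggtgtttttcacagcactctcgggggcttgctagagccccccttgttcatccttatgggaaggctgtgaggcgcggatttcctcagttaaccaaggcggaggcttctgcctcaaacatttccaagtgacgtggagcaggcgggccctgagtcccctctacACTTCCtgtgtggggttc
Lck, outer start, chr4:129573642-129573891, minus strand: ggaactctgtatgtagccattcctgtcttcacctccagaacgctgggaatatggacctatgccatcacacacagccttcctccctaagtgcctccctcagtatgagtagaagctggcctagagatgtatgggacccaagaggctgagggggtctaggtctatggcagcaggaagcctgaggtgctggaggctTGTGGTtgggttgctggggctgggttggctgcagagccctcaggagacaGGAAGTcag
Lck, inner start, chr4:129558373-129558622, minus strand: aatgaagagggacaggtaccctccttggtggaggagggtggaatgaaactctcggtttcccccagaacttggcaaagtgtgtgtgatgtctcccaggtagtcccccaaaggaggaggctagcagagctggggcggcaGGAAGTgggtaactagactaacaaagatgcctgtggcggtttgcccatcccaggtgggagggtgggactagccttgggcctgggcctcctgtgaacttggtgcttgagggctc

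GGAAGT was present in the windows of Cd3d (first base at -199 from the start site) and Cd3e (-18) and in both windows of Lck (-9 and -113), and was not found in that of Cd3g. Of 32817 mouse promoter windows of the same length, 19.7% held it. TGTGGT occurred in the outer window of Lck (-58), against 14% of all windows. TATAAA was in none of these windows (12.4% of all). The E-box CANNTG was found in the windows of Cd3d, Cd3e, Cd3g and the inner one of Lck, with 66.2% of all windows holding it; no match overlapped a capital stretch. Lck has a distal and a proximal promoter, and a value per gene does not tell their transcripts apart.

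Per length, the 10 genes spanned a wide range. Lck had the highest mean over the 6 libraries, at 25.2 FPKM, followed by Trbc2 (13.9), Cd3g (4.97), Cd3e (3.51), Cd3d (3.44), Cd4 (1.8), Cd8b1 (1.71), Cd8a (0.829), Pdcd1 (0.555) and Icos (0.340 FPKM). Lck was above Trbc2, Trbc2 above Cd3g, Cd3g above Cd3e, Cd3d above Cd4 and Cd8b1 above Cd8a in 6 of 6 libraries. The order of Cd3e and Cd3d, and that of Cd4 and Cd8b1, held in 4 of 6 libraries, so these neighbours did not differ beyond their spread. Cd8a was above Pdcd1, and Pdcd1 above Icos, in 5 of 6. The CD3 chains were low beside Cd79a: their summed FPKM came to 0.560% to 0.967% of its FPKM.

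**Figure D1:**
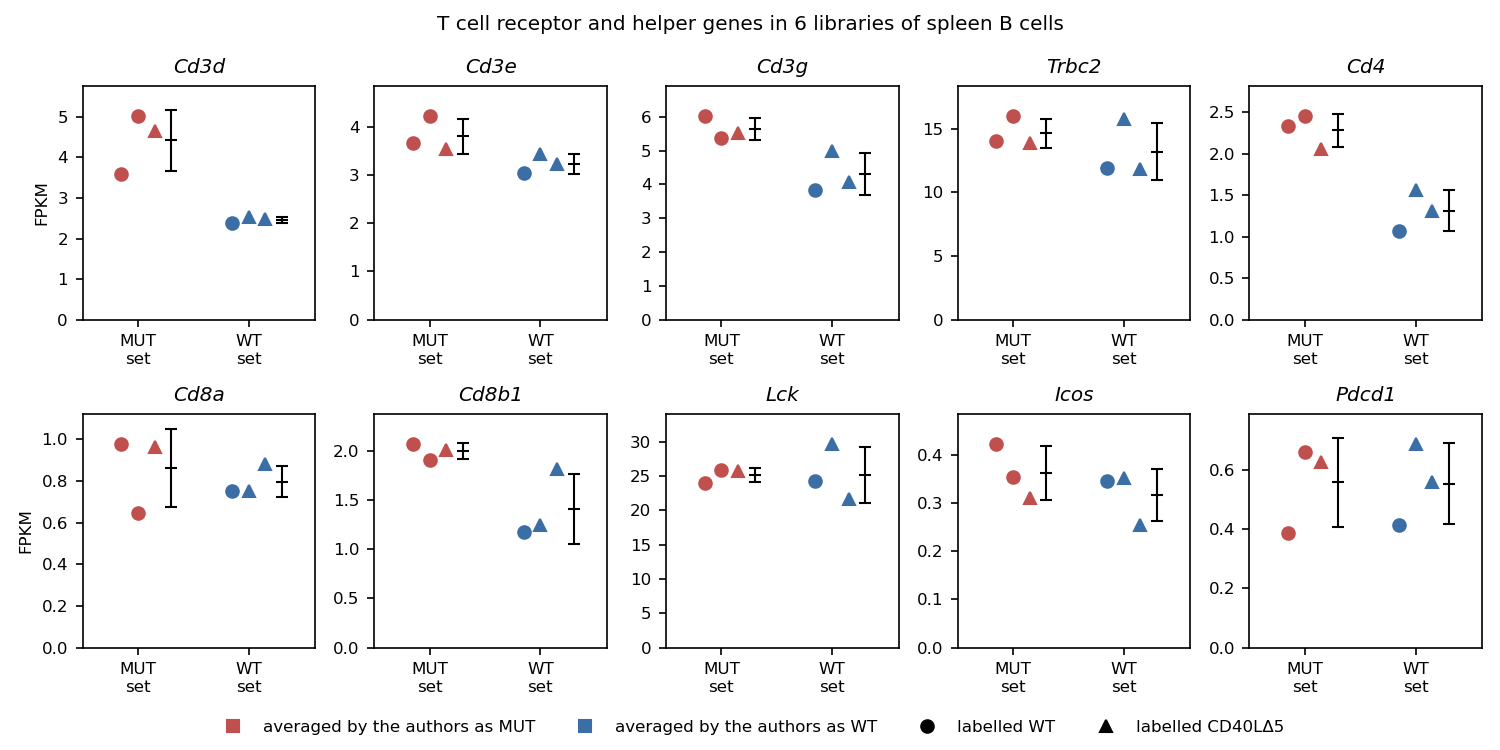
FPKM (y axis, from 0) of each of the 10 genes in the 6 libraries; colour gives the set in which the authors' table averaged a library and shape gives its label, with mean ± SD (n = 3) of each set beside the points. Cd3d, Cd3e, Cd3g, Cd4 and Cd8b1 separate by colour, and none of the 10 separates by shape.

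The CD3 chains were highest in the same libraries. Values by library are given under each label in the order of replicates 1, 2 and 3. Cd3d, the delta chain, stood at 3.58, 5.00 and 2.38 FPKM under the WT label and at 2.53, 4.66 and 2.47 FPKM under the CD40LΔ5 label. Each label thus held both high and low libraries, and the labels overlapped. Cd3e, the epsilon chain, which pairs with each of the other two, stood at 3.65, 4.21 and 3.03 FPKM in the former and 3.43, 3.53 and 3.22 FPKM in the latter. Its order was the same at the ends but its range was narrower, 1.39-fold from lowest to highest against 2.10-fold for Cd3d. Cd3g, the gamma chain, stood at 6.01, 5.39 and 3.83 FPKM and at 5.00, 5.51 and 4.07 FPKM. WT replicates 1 and 2 and CD40LΔ5 replicate 2 were the highest libraries for each of the 3 chains, and WT replicate 3 was the lowest. The ratio of Cd3d to Cd3e was not constant: it was 0.980, 1.19 and 1.32 in WT replicates 1 and 2 and CD40LΔ5 replicate 2, and 0.787, 0.737 and 0.766 in WT replicate 3 and CD40LΔ5 replicates 1 and 3.

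Behind these levels were 87 to 161 reads a library for Cd3d, 120 to 147 for Cd3e and 108 to 157 for Cd3g. Where only counting error acts, chi-square of the reads divided by its degrees of freedom lies near 1. Over the 6 libraries this ratio was 13.8 for Cd3d, 4.05 for Cd3g and 1.74 for Cd3e. The spread of Cd3e was therefore little above counting error, and that of Cd3d well above it. Reads without molecular identifiers are not independent molecules, so this ratio, like any counting interval, covers counting error only.

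Trbc2, a constant region of the receptor beta chain (chromosome 6, 41546730 to 41548181, plus strand), followed the CD3 chains in part. It stood at 14.1, 15.9 and 11.9 FPKM under the WT label and at 15.8, 13.8 and 11.8 FPKM under the CD40LΔ5 label. WT replicate 3 and CD40LΔ5 replicate 3 were low as for CD3, but CD40LΔ5 replicate 1 was second highest. Trbc1, the other constant region of the same locus, differed from it there, at 8.26, 13.3 and 5.73 FPKM in the WT libraries and 6.61, 12.1 and 6.66 FPKM in the CD40LΔ5 libraries. Trbc2 was 1.14 to 1.70 times Trbc1 in the 3 libraries of high CD3 and 1.78 to 2.38 times in the other 3. The genes are near-identical copies, and the authors' counting could have split shared reads between them, so values of either are uncertain. Summed over both, the level was 17.6 to 29.2 FPKM, lowest in WT replicate 3 and highest in WT replicate 2, as for the summed CD3 chains. Unlike the summed CD3 chains, this sum overlapped between the table's sets. It was 22.4 FPKM in CD40LΔ5 replicate 1 and 22.3 FPKM in WT replicate 1.

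Of the coreceptors, Cd4, which binds MHC class II on helper T cells (chromosome 6, 124864692 to 124888221, minus strand), varied most. It stood at 2.33, 2.45 and 1.07 FPKM under the WT label and at 1.56, 2.06 and 1.30 FPKM under the CD40LΔ5 label, on 92 to 185 reads. Its 2.28-fold range was the widest of the 10 genes, and the libraries ranked as for Cd3e at the top and the bottom. Some dendritic cells and macrophages also express Cd4. Cd8b1, the CD8 beta chain, found on conventional cytotoxic T cells (chromosome 6, 71322836 to 71337477, plus strand), stood at 2.07, 1.91 and 1.18 FPKM and at 1.25, 2.02 and 1.82 FPKM. CD40LΔ5 replicate 3, low for CD3, was close to the high libraries for this gene. Cd8a, the alpha chain, lies 35949 bases further along the chromosome (71373427 to 71379171, plus strand) and is also expressed by some dendritic cells. It stood at 0.976, 0.644 and 0.753 FPKM and at 0.752, 0.965 and 0.883 FPKM. WT replicate 2, highest for Cd3d, Cd3e and Cd4, was thus the lowest for Cd8a. Chi-square over its degrees of freedom was 1.70 for Cd8a over the 6 libraries, little above counting error. The exact Poisson 95% intervals of its lowest and highest library, 0.476 to 0.851 and 0.772 to 1.22 FPKM, overlap. The ratio of Cd8b1 to Cd8a ran from 1.56 to 2.97 over the libraries, with counts of 46 to 78 reads for either gene.

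Lck (chromosome 4, 129548344 to 129573641, minus strand) stood apart from the CD3 chains in level and pattern. It measured 24.0, 25.9 and 24.3 FPKM under the WT label and 29.6, 25.7 and 21.6 FPKM under the CD40LΔ5 label. Its highest and its lowest library carried the same label and were in the same set of the table. Lck is also expressed by B-1 cells in the mouse. Its level was 5.32 to 8.11 times the mean of the CD3 chains. The ratio was 5.32 to 5.63 in the libraries averaged as MUT and 6.64 to 8.11 in those averaged as WT, without overlap. The mean of the CD3 chains itself did not overlap between these sets, whereas Lck did. The separation of the ratio is therefore no separate result about Lck. With 1315 to 1760 reads per library, chi-square over its degrees of freedom was 39.9 among the libraries averaged as WT and 2.33 among those averaged as MUT.

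Icos, the inducible costimulator of helper T cells (chromosome 1, 60977927 to 61000320, plus strand), and Pdcd1, which encodes the inhibitory receptor PD-1 (chromosome 1, 94038305 to 94052553, minus strand), were the lowest. Icos stood at 0.423, 0.355 and 0.347 FPKM under the WT label and at 0.352, 0.311 and 0.255 FPKM under the CD40LΔ5 label. Its extremes, on 35 and 23 reads, had exact Poisson 95% intervals of 0.295 to 0.588 and 0.161 to 0.382 FPKM, which overlap. Pdcd1 stood at 0.386, 0.660 and 0.413 FPKM and at 0.686, 0.626 and 0.558 FPKM, on 19 to 36 reads. The intervals of its lowest and highest library, 0.232 to 0.602 and 0.481 to 0.950 FPKM, overlap as well. Chi-square over its degrees of freedom was 0.785 for Icos and 1.5 for Pdcd1, so differences between libraries were not detectable beyond counting error at this depth.

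Seen by library, 8 of the 10 genes had WT replicate 1, 9 had WT replicate 2 and 8 had CD40LΔ5 replicate 2 among their highest 3. For CD40LΔ5 replicates 1 and 3 these counts were 4 and 1, and for WT replicate 3 the count was 0. Such counts by library were not made over all genes. Of all genes of at least 1 FPKM, 62.0% had higher mean log2 values in WT replicates 1 and 2 and CD40LΔ5 replicate 2 than in the others. WT replicate 3 was the lowest library for 5 genes and CD40LΔ5 replicate 3 for 3. The median over the 10 genes of log2 FPKM minus the mean of the gene was 0.19, 0.20 and 0.19 in WT replicates 1 and 2 and CD40LΔ5 replicate 2, 0.00 in CD40LΔ5 replicate 1, and -0.29 and -0.22 in WT replicate 3 and CD40LΔ5 replicate 3.

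**Figure D2:**
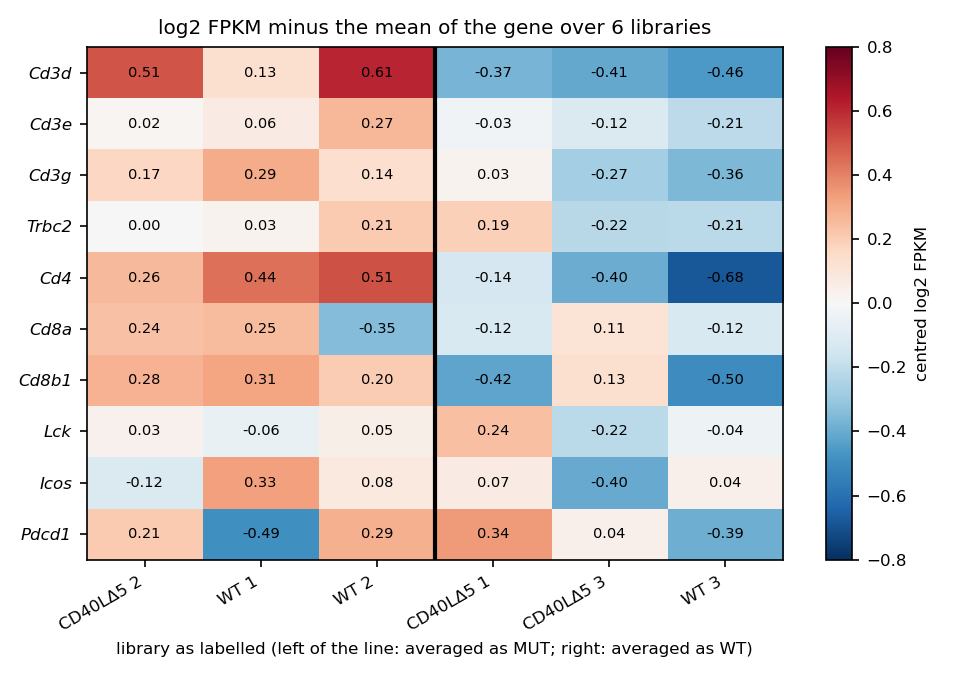
Log2 FPKM of each gene (rows) in each library (columns, named by label) minus the mean of the gene over the 6 libraries; red is above and blue below that mean. Cd3d, Cd3e and Cd4 are above their mean in each library averaged as MUT and below it in each averaged as WT, Cd3g is slightly above its mean (0.03) in CD40LΔ5 replicate 1, and Lck, Icos and Pdcd1 do not separate this way.

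By the labels, which ask how CD40LΔ5 differs from WT, none of the 10 genes separated the groups. Cd3d measured 3.22 ± 1.25 FPKM in CD40LΔ5 and 3.66 ± 1.31 FPKM in WT (SD, n = 3), a log2 difference of -0.14 with a 95% interval of -0.79 to 0.51. Cd4 measured 1.64 ± 0.384 against 1.95 ± 0.762 FPKM (SD, n = 3), with a log2 difference of -0.13 (-0.69 to 0.42). For Lck it was 0.04 (-0.25 to 0.33). Of the 7 genes that averaged 1 FPKM or more and so entered limma on log2(FPKM + 1), 6 had lower and 1 had higher mean values in CD40LΔ5, with a median log2 difference of -0.04 against 0.01 over all 11252 genes tested, of which 55.5% had higher values. Of these 7 genes 0 passed an adjusted p of 0.05, and 0.0% of all genes did (each adjusted p in limma was 0.999993 for these 7); 0 of the 7 had an unadjusted p under 0.05, against 1.24% of all genes. limma voom also called 0 of the 7 and 0.0% of all genes. The direction rested on single libraries: without WT replicate 2, 6 of the 7 had higher values in CD40LΔ5, with Cd3d at 0.06, while without WT replicate 3 the log2 difference of Cd3d was -0.35.

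Under the 1 FPKM level, Cd8a, Icos and Pdcd1 were compared by permuting the libraries (exact, two-sided, on mean FPKM), where 3 against 3 can give no p below 0.1. By the labels Cd8a measured 0.867 ± 0.107 FPKM in CD40LΔ5 and 0.791 ± 0.169 FPKM in WT (SD, n = 3; exact permutation p = 0.7). Icos and Pdcd1 gave exact permutation p-values of 0.2 and 0.3. For all 10 genes the libraries of both labels overlapped. Without WT replicate 3, Cd3e, Cd4 and Icos were lower in CD40LΔ5 without overlap; without WT replicate 2 Pdcd1 was higher, and without CD40LΔ5 replicate 1 Icos was lower. With all 6 libraries, groups without overlap made up 2.98% of genes of at least 1 FPKM on the higher and 1.32% on the lower side. Over genes of at least 0.1 FPKM these shares were 3.32% and 1.88%. Smaller groups separate more easily, so these shares are no measure for the comparisons with a library left out. For those, shares over all genes were not computed.

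By the table, 5 of the 10 genes had every library averaged as MUT above every library averaged as WT: Cd3d, Cd3e, Cd3g, Cd4 and Cd8b1. For each of these 5, the exact Poisson 95% intervals of the lowest MUT library and the highest WT library overlap. For Cd3e they were 2.94 to 4.21 FPKM (CD40LΔ5 replicate 2) and 2.88 to 4.07 FPKM (CD40LΔ5 replicate 1). For Cd8b1 they were 1.48 to 2.43 FPKM (WT replicate 2) and 1.43 to 2.29 FPKM (CD40LΔ5 replicate 3). Cd3d measured 4.41 ± 0.741 FPKM in the MUT set and 2.46 ± 0.0741 FPKM (SD, n = 3) in those averaged as WT, a ratio of 1.79 (log2 difference 0.64 ± 0.12 SE, 95% interval 0.35 to 0.93). Cd4 measured 2.28 ± 0.199 against 1.31 ± 0.245 FPKM (SD, n = 3), a ratio of 1.74 (log2 difference 0.51 ± 0.13 SE). Cd8b1 measured 2.0 ± 0.080 against 1.41 ± 0.355 FPKM, and Cd3g 5.64 ± 0.331 against 4.30 ± 0.620 FPKM (SD, n = 3). Cd3e differed least of these, at 3.80 ± 0.360 against 3.23 ± 0.203 FPKM (log2 difference 0.18, 95% interval -0.05 to 0.42). Groups without overlap in this direction made up 12.1% of the 11252 genes of at least 1 FPKM, among which 5 of 7 genes described here were found, and 12.5% of the 15865 genes of at least 0.1 FPKM.

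None of these differences passed the test. In limma 0 of the 7 tested genes had an adjusted p under 0.05, against 0.0267% of all genes (3 of 11252), and the adjusted p was 0.343 for Cd3d and Cd4, 0.354 for Cd3g, 0.385 for Cd8b1 and 0.449 for Cd3e. At an unadjusted p under 0.05 there were 3 of the 7, namely Cd3d (0.00128), Cd4 (0.00529) and Cd3g (0.0186) in limma, all higher in the libraries averaged as MUT, against 9.39% of all genes in that direction. limma voom called 0 of the 7, against 0.00889% of all genes. All 7 had higher mean values in the libraries averaged as MUT, as did 62.0% of all genes, and their median log2 difference was 0.32, against 0.05 over all genes tested.

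Trbc2, Lck, Cd8a, Icos and Pdcd1 overlapped between the table's sets. Lck measured 25.2 ± 1.03 against 25.2 ± 4.09 FPKM (SD, n = 3), a log2 difference of 0.01 with a 95% interval of -0.27 to 0.29, which leaves room for a change of either sign; its sign was negative with quantile scaling (-0.02), where reads on immunoglobulin genes were left out of the scaling (-0.03), and without WT replicate 2, WT replicate 3, CD40LΔ5 replicate 2 or CD40LΔ5 replicate 3. Trbc2 had a log2 difference of 0.15 (-0.14 to 0.44). Fitted with all genes of at least 0.1 FPKM, Cd8a had 0.05 (-0.21 to 0.30), Icos 0.05 (-0.14 to 0.24) and Pdcd1 0.00 (-0.26 to 0.27). Whether the difference of Cd3d is larger than that of Lck or Pdcd1 was not tested.

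**Figure D3:**
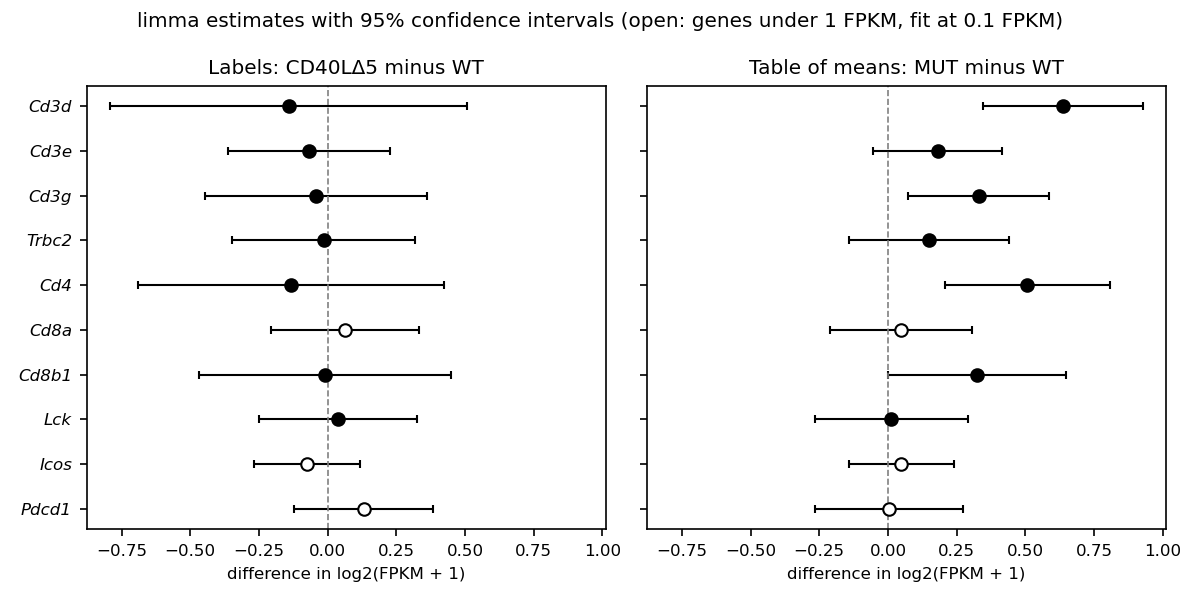
Difference in log2(FPKM + 1) of each gene with its limma 95% confidence interval, by the labels (left, CD40LΔ5 minus WT) and by the authors' table of means (right, MUT minus WT), n = 3 libraries a group; open points are genes under 1 FPKM, from the fit of genes of at least 0.1 FPKM. On the left all intervals include 0; on the right those of Cd3d, Cd3g and Cd4 lie above 0 before adjustment over all genes.

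Among 22 further genes of the T cell receptor complex and its signalling, 16 were tested and 0 were called in either placement. In the sets of the authors' table, 11 had higher and 5 had lower mean values in the libraries averaged as MUT (median log2 difference 0.09), and by the labels 7 were higher and 9 lower in CD40LΔ5 (median -0.02). Trbc1 (log2 difference 0.71 ± 0.17 SE by the table, limma adjusted p = 0.343), Fyb (0.46, 0.343), an adaptor of receptor signalling, and Skap1 (0.36, 0.356), another adaptor, had the smallest p and did not overlap between the table's sets. In all, 4 of the 16 tested genes were higher in the MUT set without overlap, against 12.1% of all genes of at least 1 FPKM. Trac, the constant region of the alpha chain, did not follow the CD3 chains, at 5.41, 5.58 and 5.18 FPKM under the WT label and at 5.35, 3.90 and 3.48 FPKM under the CD40LΔ5 label, on 40 to 60 reads. It was low in CD40LΔ5 replicate 2, which was high for CD3. Whether the spread of Trac exceeds counting error was not tested. The most abundant genes of this list were Cd2 (117 to 183 FPKM), Rasgrp1 (25.7 to 35.6 FPKM) and Fyn (17.1 to 22.8 FPKM), which mouse B cells also express.

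Of the naive T cell list 8 of 11 genes were tested and 0 called (median log2 difference 0.02 by the table and 0.03 by the labels). Il7r, the interleukin 7 receptor alpha chain, measured 2.20 ± 0.218 against 1.59 ± 0.378 FPKM by the table (SD, n = 3; limma adjusted p = 0.399), without overlap. This was 1 of the 8 tested genes, near the 12.1% of all genes of at least 1 FPKM that separated this way. Tcf7, a T cell transcription factor, was nearly even over the libraries, at 7.45 to 8.20 FPKM. Of the regulatory T cell list only Il2ra reached 1 FPKM, and Foxp3, its defining transcription factor, stood at 0.104 to 0.357 FPKM.

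Among 12 costimulation genes, Cd28, the main costimulatory receptor of T cells, had a pattern unlike that of CD3. It stood at 1.04, 5.73 and 5.90 FPKM under the WT label and at 3.42, 1.23 and 6.89 FPKM under the CD40LΔ5 label, on 115 to 835 reads. WT replicate 1 and CD40LΔ5 replicate 2, high for CD3, were the lowest. Tigit, an inhibitory receptor, had the same lowest libraries, at 0.854 and 0.794 FPKM, against 1.41 to 3.43 FPKM in the others. Plasma cells are known to express Cd28, and the summed FPKM of the plasma cell list was 934 and 749 in those 2 libraries and 1584 to 3875 in the others. The part of these cells in the Cd28 values was not tested. Of this list 7 genes were tested and 0 called; 5 had higher and 2 lower values by the table (median log2 difference 0.14), and 3 higher and 4 lower by the labels (median -0.09). Tnfrsf4 and Tnfrsf18, which encode OX40 and GITR, were without overlap higher in the libraries averaged as MUT (log2 differences 0.31 and 0.43, limma adjusted p = 0.375 and 0.398). They were 2 of the 7 tested genes, against 12.1% of all genes of at least 1 FPKM that separated this way.

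The follicular helper list of 14 genes spanned a wide range of levels. Il21, the helper cytokine, had 0 reads in 5 libraries and 2 reads in CD40LΔ5 replicate 3, and Ascl2, a transcription factor of these cells, had 0 to 8 reads. Il4, another helper cytokine, had 7 to 22 reads, Tox2 15 to 46 and Sh2d1a, which encodes the adaptor SAP, 18 to 28. The transcription factors Tox and Maf were read more often, Tox at 0.277 to 1.26 FPKM on 28 to 136 reads and Maf at 0.900 to 1.64 FPKM on 158 to 266 reads. The members of that list with high values, Pou2af1 (223 to 296 FPKM), Cxcr5 (118 to 157 FPKM) and Slamf6, are also B cell genes. Of its 7 tested genes 0 were called, with 4 higher and 3 lower in either placement and a median log2 difference of 0.00 by the table and 0.03 by the labels. Bcl6, which directs both helper and germinal centre B cells, measured 24.9 ± 3.13 against 34.9 ± 7.95 FPKM by the table (SD, n = 3; limma adjusted p = 0.367).

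Markers of other cells were set beside these values in both placements; none of their genes was called, and no gene of any of the lists was at 0 in every library. By the table, where 62.0% of all genes had higher values, the natural killer list was the one of these 8 lists whose summed level did not overlap between the sets. Summed over 8 genes, it was 48.5 to 58.3 FPKM in the MUT set and 22.7 to 34.5 FPKM in the WT set, with 7 of 7 tested genes higher (median log2 difference 0.55). Gzma, a granule protease of cytotoxic cells, measured 22.1 against 8.45 FPKM (limma adjusted p = 0.0677). By the labels 2 of these 7 had higher and 5 lower values in CD40LΔ5.

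The other lists overlapped between the table's sets in their summed level. The conventional dendritic cell list, some of whose cells express Cd4 or Cd8a, summed to 4.99 to 7.82 FPKM in the MUT set and 4.02 to 5.21 FPKM in the WT set, with 2 of 3 tested genes higher by the table and 3 of 3 lower in CD40LΔ5 by the labels. The plasmacytoid list summed to 18.0 to 32.4 and 12.9 to 19.4 FPKM, with 2 of 3 higher by the table and 2 of 3 lower by the labels. The macrophage list summed to 112 to 277 and 73.1 to 119 FPKM; 8 of 8 genes were higher by the table, and 8 of 8 were lower in CD40LΔ5 by the labels (median log2 difference -0.32). Placement thus turned the direction of most tested genes in these 3 lists. The mean summed level of the plasmacytoid list did not turn. It was 23.1 FPKM in the MUT set against 15.2 FPKM in the WT set. By the labels it was 21.7 FPKM in CD40LΔ5 against 16.6 FPKM in WT. The erythroid list summed to 696 to 900 and 277 to 988 FPKM, with 5 of 5 higher by the table and 5 of 5 lower by the labels. The neutrophil list summed to 60.4 to 68.5 and 36.3 to 461 FPKM, with 6 of 6 lower by the table and 4 of 6 higher by the labels. The plasma cell list summed to 749 to 3875 and 1584 to 3839 FPKM, with 5 of 5 lower in either placement. The B cell list itself summed to 4686 to 5256 and 4502 to 4836 FPKM, with 8 of 8 higher by the table (median log2 difference 0.11) and 7 of 8 by the labels. The part of these cells in the values of the 10 genes was not tested.

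**Figure D4:**
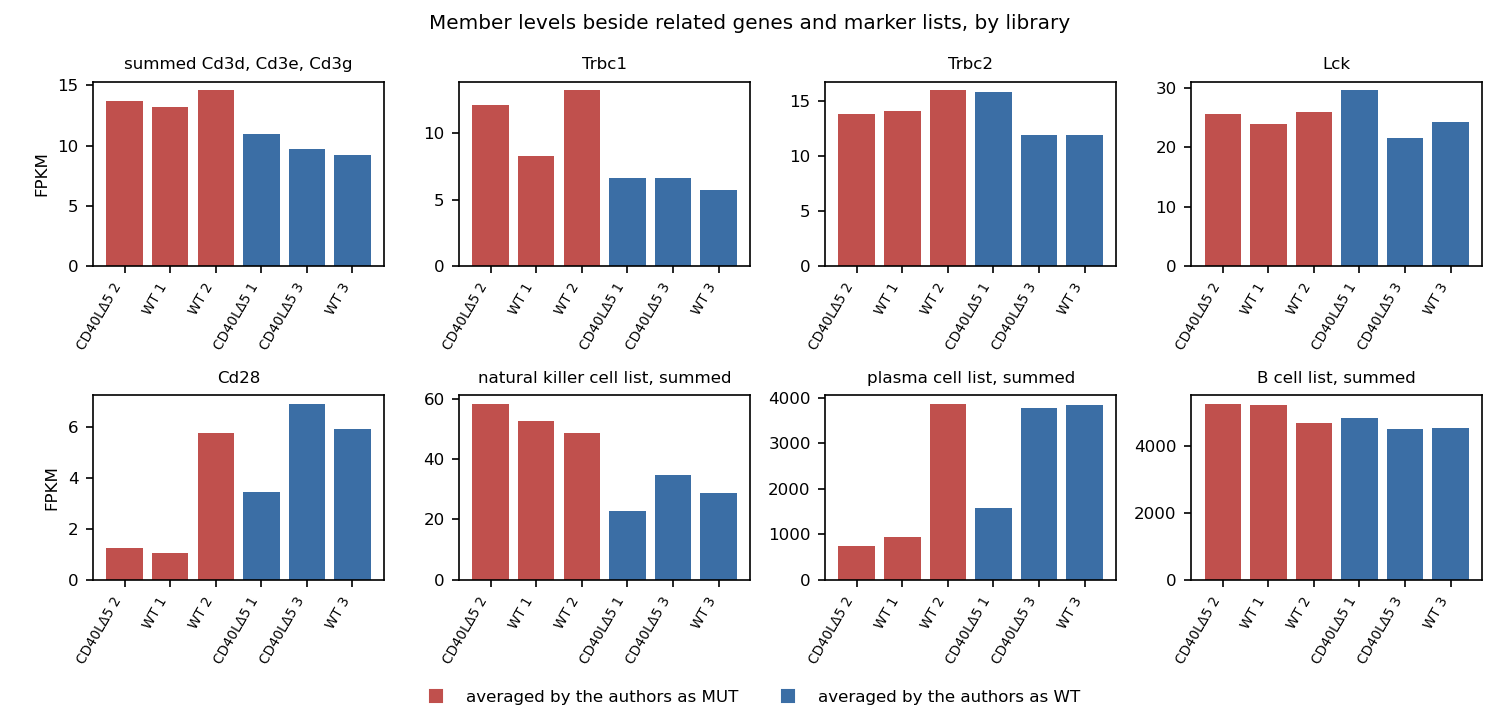
Level in FPKM (bars from 0) in each library, named by its label and coloured by the set of the authors' table, for the summed CD3 chains, Trbc1, Trbc2, Lck, Cd28 and 3 summed marker lists. The CD3 chains and the natural killer list are higher in every red library than in any blue one, whereas Cd28 and the plasma cell list are low in CD40LΔ5 replicate 2 and WT replicate 1.

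The genes whose pattern over the 6 libraries lay closest to that of the summed CD3 chains were sought among 3730 genes of at least 1 FPKM and a range of at least 0.5 in log2(FPKM + 1). By root mean square distance of centred log2(FPKM + 1) they were Dcaf11 (0.0380), Abcc10 (0.0391), Gngt2 (0.0457), Dkkl1 (0.0529) and Gm10505 (0.0539). Abcc10, for example, stood at 4.02, 4.57 and 2.52 FPKM under the WT label and at 3.25, 4.51 and 2.92 FPKM under the CD40LΔ5 label. Of the 10 genes themselves, Cd4 (0.0658) and Cd3g (0.0982) were nearest to the summed CD3 pattern and Cd8a (0.245) and Lck (0.231) farthest; Cd3g is part of that sum. With 6 libraries many genes resemble any pattern, and these distances are a description.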

How the data were processed

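Deposited by the authors were FPKM for every gene in each library, gene lengths, and a table of group means, whose columns were matched to libraries by equality of the means. Per the labels' protocols, a TruSeq RNA kit was used; strand use in counting is not given in the sources used here. Per the submitters' processing notes, the authors used CASAVA 1.8.2, STAR and DESeq2, and the build mm9 is named; no roles are given. The deposited coordinates are those of GRCm38: 24932 of 34490 gene identifiers shared with GENCODE M21 have equal ends, and all 10 genes overlap their M21 entry. FPKM times length gave whole reads for 100% of values (tolerance 0.01), from which depth and read numbers were taken; 1 read equals 0.0359 to 0.0411 FPKM at 1 kb.

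Groups were 3 against 3 without covariates. limma 3.58.1 (R 4.3.3; lmFit, eBayes with trend) was run on log2(FPKM + 1) for the 11252 genes averaging 1 FPKM or more, two-sided, with Benjamini-Hochberg adjustment over all of them and a threshold of 0.05. Differences on this scale understate the change of low genes. Alternatives were other pseudocounts, filters, scalings, a variance model without trend, voom, a replicate block, and each library left out; scaling without immunoglobulin genes was added after seeing the data. The procedure was run on simulated data, but how many of the set changes it recovered is not reported here. Pairs of libraries differed beyond sampling noise in every case (chi-square over degrees of freedom 26.1 to 152). The members were taken by name, with no threshold on their values, but they and the gene lists were chosen with earlier results of these data known. Named genes are the 10 members, Cd40lg, up to 3 genes of smallest p and up to 3 of highest level from each list, and the 5 nearest in pattern; Il21, Il4, Ascl2, Sh2d1a, Tox, Tox2, Tigit, Trac, Tcf7 and Foxp3 were named outside this rule, after their values were seen. Adgre1 was found under its older symbol through the RefSeq gene table.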

Additional observations from a re-analysis of the deposited data

How the results depend on the processing

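None of the 10 genes was called in either placement under any setting run. Of 101 values of single genes under alternatives, 90 by the labels and 93 by the table had the direction of the main value. By the labels the sign of a log2 difference turned when 1 library was left out: Cd3d ranged from -0.37 to 0.061, Cd3e from -0.16 to 0.021, Cd3g from -0.20 to 0.070, Trbc2 from -0.12 to 0.084, Cd8b1 from -0.16 to 0.12 and Lck from -0.068 to 0.15. Leaving out WT replicate 2 turned Cd3d, Cd3e, Cd3g, Trbc2 and Cd8b1, WT replicate 1 turned Cd3g and Cd8b1, CD40LΔ5 replicate 1 turned Cd8b1 and Lck, and CD40LΔ5 replicate 3 turned Cd3g and Trbc2. By the table Lck ranged from -0.089 to 0.13 with 1 library left out, and was -0.024 with quantile scaling and -0.033 with scaling without immunoglobulin genes. Cd3d by the table ranged from 0.53 to 0.82 over the settings without a block, with a limma adjusted p of 0.189 to 0.845. Quantile scaling lowered the log2 difference by the table of Cd4 from 0.51 to 0.37 and of Cd3g from 0.33 to 0.24. Under the same scaling Cd8b1 went from 0.32 to 0.17 and Cd3e from 0.18 to 0.07. Over all genes by the table, 3 were called in the main fit, 5 with a pseudocount of 0.1, 1 without a filter, 1 with quantile scaling, 1 with voom, and 1 to 16 when 1 library was left out. With the replicate block 0 were called in either placement. By the table the block is no check of 3 against 3: both replicates 2 are in the MUT set and both replicates 3 in the WT set, so its values compare WT replicate 1 with CD40LΔ5 replicate 1 alone (Trbc2 -0.15, Lck -0.29, both of opposite sign to the main value). Deviations of same-numbered libraries from their group means had r of -0.38, 0.06 and 0.38 across genes for replicates 1, 2 and 3, without a common sign. These correlations cannot tell whether a number marks a shared animal, litter or day, which the labels do not say. The cause of these changes was not tested. No scaling moved the median of all genes by over 0.1. Depth limits Icos and Pdcd1, on 19 to 36 reads, most.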
